A study of Rattus norvegicus with 24 samples.

Results

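The genes described here are 6 genes of leukocyte adhesion and of the S100 family in the rat testis: Icam1, Vcam1, Sele, Selp, S100a8 and S100a9. They were taken as all probe sets whose single gene symbol in the platform annotation is 1 of these names, which gave 7 probe sets of the 31042 tested, and 6 genes of the 14217 measured, with 2 probe sets for Selp and 1 for each of the others. No filter on intensity was applied, so all 7 probe sets were tested. The genes were selected on their intensities in testes of pups given dibutyl phthalate (DBP, a plasticizer) after fetal oil, where some of them were high against the oil control and S100a9 differed among the pups. The level of each member in that group against its control is therefore given as a description, with no test.

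The testes came from male Fisher 344 rats in 6 groups of 4 arrays, 24 arrays in all, and 1 array holds the RNA of 1 pup or of the fetal testis from 1 dam. In the DBP-DBP group the dam was gavaged with 50 mg/kg DBP a day from gestational day 12 to 20 and the pup with 500 mg/kg DBP on postnatal day 35 (PND35). In the DBP-Oil group the dam received the same DBP and the pup corn oil. In the Oil-DBP group the dam received corn oil and the pup 500 mg/kg DBP, and in the Oil-Oil group both received corn oil. These testes were taken 6 hours after the PND35 gavage. On gestational day 20 (GD20) fetal testes were taken from 4 dams given 50 mg/kg DBP, 6 hours after the last dose, and from 4 dams given corn oil, for which no interval is recorded here. The oil array of dam 2 is labelled as a pool. The tissue was whole testis without its capsule, so interstitial cells, vessels and blood were measured together with the seminiferous tubules. In such tissue fewer cells of a type and less RNA per cell cannot be told apart. The p-values below rest on the spread between these pups at PND35 and between these dams at GD20. The labels do not say which litters the pups came from, so any littermates were treated as independent in the main fit. Their p-values could then be too small.

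Leukocytes leave the blood in steps. Selectins on activated endothelium, E-selectin (Sele) and P-selectin (Selp), catch the passing cells, and the immunoglobulin-type ligands Icam1 and Vcam1 then hold them through the integrins on their surface. Icam1 is bound by beta-2 integrins and Vcam1 by alpha-4 integrins, and both ligands can be induced by cytokines such as tumor necrosis factor and interleukin-1 through NF-kB, also on cells other than endothelium. P-selectin is stored in granules of endothelium and platelets and can reach the surface without new RNA. S100a8 and S100a9 are small calcium-binding proteins that pair to form calprotectin, a major protein of the neutrophil cytosol that monocytes hold too, and outside the cell they act on Toll-like receptor 4. In the rat annotation S100a8 and S100a9 are neighbours on chromosome 2, and Sele and Selp lie near each other on chromosome 13.

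The promoters of members whose RNA moved together are shown here, since NF-kB sites are well known in the promoters of the human adhesion ligands. Of the 6 genes, 4 had a promoter in the RefSeq table (build GRCr8), which covers 250 bases before to 50 bases after the start, 300 bases in all. The Icam1 window is chr8:27829595-27829894 on the + strand, the Vcam1 window chr2:206742734-206743033 on the - strand and the S100a9 window chr2:178490573-178490872 on the - strand. Each runs 5′ to 3′ in the direction of the gene, and capitals mark every match to 1 of 3 motifs, searched on both strands. The NF-kB-like motif was spelled GGNNNTTCC. For AP-1 the spelling searched, which had no match in these windows, was TGANTCA. The TATA box was searched for with the spelling TATAAA.
Icam1: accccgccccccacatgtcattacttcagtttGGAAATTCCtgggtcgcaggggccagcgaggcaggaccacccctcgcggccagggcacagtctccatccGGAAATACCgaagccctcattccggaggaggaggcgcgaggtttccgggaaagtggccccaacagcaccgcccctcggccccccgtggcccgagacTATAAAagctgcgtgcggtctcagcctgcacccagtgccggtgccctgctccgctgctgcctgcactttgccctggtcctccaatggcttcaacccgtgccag
Vcam1: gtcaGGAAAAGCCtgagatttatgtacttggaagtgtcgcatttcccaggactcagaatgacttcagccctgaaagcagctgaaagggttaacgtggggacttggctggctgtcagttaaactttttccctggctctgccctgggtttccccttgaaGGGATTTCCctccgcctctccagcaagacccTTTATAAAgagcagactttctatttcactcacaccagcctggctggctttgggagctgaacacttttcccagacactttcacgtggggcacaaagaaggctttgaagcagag
S100a9: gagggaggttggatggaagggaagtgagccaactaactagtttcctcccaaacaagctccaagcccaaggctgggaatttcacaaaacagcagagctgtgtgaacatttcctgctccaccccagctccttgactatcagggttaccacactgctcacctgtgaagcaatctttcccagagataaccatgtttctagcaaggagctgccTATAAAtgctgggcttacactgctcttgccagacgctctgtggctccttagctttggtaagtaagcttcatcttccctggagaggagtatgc
Icam1 held an NF-kB-like match from -218 to -210, which reads as a match on both strands, a second one on the opposite strand from -149 to -141, and a TATA box from -53 to -48 relative to the start. Vcam1 held NF-kB-like matches from -246 to -238 on the opposite strand and from -93 to -85 on the gene's strand. It also held overlapping TATA-box matches on both strands between -62 and -55. S100a9 held a TATA box from -42 to -37 and no NF-kB-like or AP-1-like match in this window. The Sele window (chr13:78936264-78936563 on the + strand) held none of the 3 motifs. Of the 33469 promoters in the table, 18.3% held the NF-kB-like letters, 7.33% the AP-1-like letters and 14.2% the TATA box, so each is common, and a match is a description of the sequence only.

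The values are probe-set intensities as deposited, scaled by the authors to 1 common trimmed mean on every array. An intensity near or under 16 is called dim below, and on each array 12.1% to 19.4% of probe sets were under that value. RNA integrity numbers lay between 8.2 and 8.9. The manufacturer's poly-A spike-in controls split the arrays of each age into a higher and a lower class. At PND35 the higher class held all DBP-DBP arrays and the DBP-Oil arrays of pups 132 and 134, and at GD20 the lower class held the DBP arrays of dams 19 and 21. The PND35 arrays of pup 104 (Oil-Oil) and pup 115 (Oil-DBP) were extracted with Trizol and the other PND35 arrays with a column kit. The testis cell markers, a list of genes of several testis cell types, summed to between 87648 and 123153 per array at PND35 and to between 77559 and 94075 at GD20. The sums of these ages need not come from the same genes or cells.

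Icam1 and Vcam1, the 2 integrin ligands, were higher in DBP-DBP testes than in DBP-Oil testes in every array. Icam1 (1387202_at) had intensities of 718, 779, 1166 and 1383 in DBP-DBP pups 124, 128, 133 and 135, against 103, 52.9, 111 and 107 in DBP-Oil pups 123, 127, 132 and 134. The groups did not overlap, and the mean was 1012 ± 317 in DBP-DBP testes and 93.5 ± 27.3 in DBP-Oil testes (SD, n = 4 each), a ratio of means of 10.8. The log2 fold change of intensity + 16 was 3.20 ± 0.26 (SE), with an adjusted p of 2.42e-08 in limma's test over all probe sets. In the same fit Vcam1 (1368474_at) rose by 2.99 ± 0.23 (adjusted p = 1.86e-08). Its intensities were 2153, 2029.7, 3774 and 4039 in DBP-DBP pups 124, 128, 133 and 135, against 380.1, 391, 309.6 and 291 in DBP-Oil pups 123, 127, 132 and 134. Vcam1 also had no overlap, with means of 2999 ± 1055 in DBP-DBP testes and 343 ± 50.1 in DBP-Oil testes (SD, n = 4 each) and a ratio of means of 8.75.

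S100a8 and S100a9 rose in the same comparison, with a wider spread among the pups than the ligands had. S100a8 (1368494_at) had intensities of 156, 141, 529 and 894 in DBP-DBP pups 124, 128, 133 and 135, against 19.3, 7.24, 18.6 and 5.04 in DBP-Oil pups 123, 127, 132 and 134. Its change on the log2 scale was 3.59 ± 0.48 (SE, limma adjusted p = 3.51e-05). S100a9 (1387125_at) had intensities of 429, 389.5, 1806 and 2860.5 in DBP-DBP pups 124, 128, 133 and 135, against 42.6, 18.4, 18.5 and 65.4 in DBP-Oil pups 123, 127, 132 and 134. Its change on the log2 scale was 4.32 ± 0.61 (SE, limma adjusted p = 6.55e-05). Neither gene overlapped between the groups, but all S100a8 values in DBP-Oil testes were near or under 16, so the size of its fold change depends on the 16 that was added. With 1 added instead it was 4.73, and with 64 it was 2.38, both past the threshold. With 64 added S100a8 came below Icam1 (2.73) and Vcam1 (2.84), while with 16 or 1 added it came above both. The means of S100a8 were 429.9 ± 358 in DBP-DBP testes and 12.6 ± 7.47 in DBP-Oil testes, and those of S100a9 were 1371 ± 1191 in DBP-DBP testes and 36.2 ± 22.6 in DBP-Oil testes (SD, n = 4 each).

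The selectins did not pass the test, and of their 3 probe sets only that of Sele was dim in DBP-DBP and DBP-Oil testes. Both Selp probe sets fell under 16 on some arrays of other groups. Sele (1388018_at) had intensities of 0.949, 6.41, 7.27 and 20.5 in DBP-DBP testes, against 1.36, 5.15, 10.5 and 5.58 in DBP-Oil testes, which overlap, with a difference of 0.14 ± 0.25 on the log2 scale (SE, limma adjusted p = 0.869). The Selp probe set 1369374_at lay between 28.4 and 54.5 in DBP-DBP testes and between 35.6 and 46.2 in DBP-Oil testes (-0.03 ± 0.32, limma adjusted p = 0.984). The other Selp probe set, 1391946_at, lay between 36.1 and 117 in DBP-DBP testes and between 37.7 and 123 in DBP-Oil testes (-0.15 ± 0.36, limma adjusted p = 0.907). Neither Selp probe set passed the test in either direction. Of the 7 member probe sets 4 were higher at an adjusted p under 0.05 in DBP-DBP testes than in DBP-Oil testes, where 3.64% of all probe sets were higher at that threshold, and none was lower. Within the higher spike-in class, where DBP-Oil is left with pups 132 and 134, the same 4 probe sets were called, with log2 fold changes of 3.00 for Icam1, 3.20 for Vcam1, 3.67 for S100a8 and 4.23 for S100a9.

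**Figure D1:**
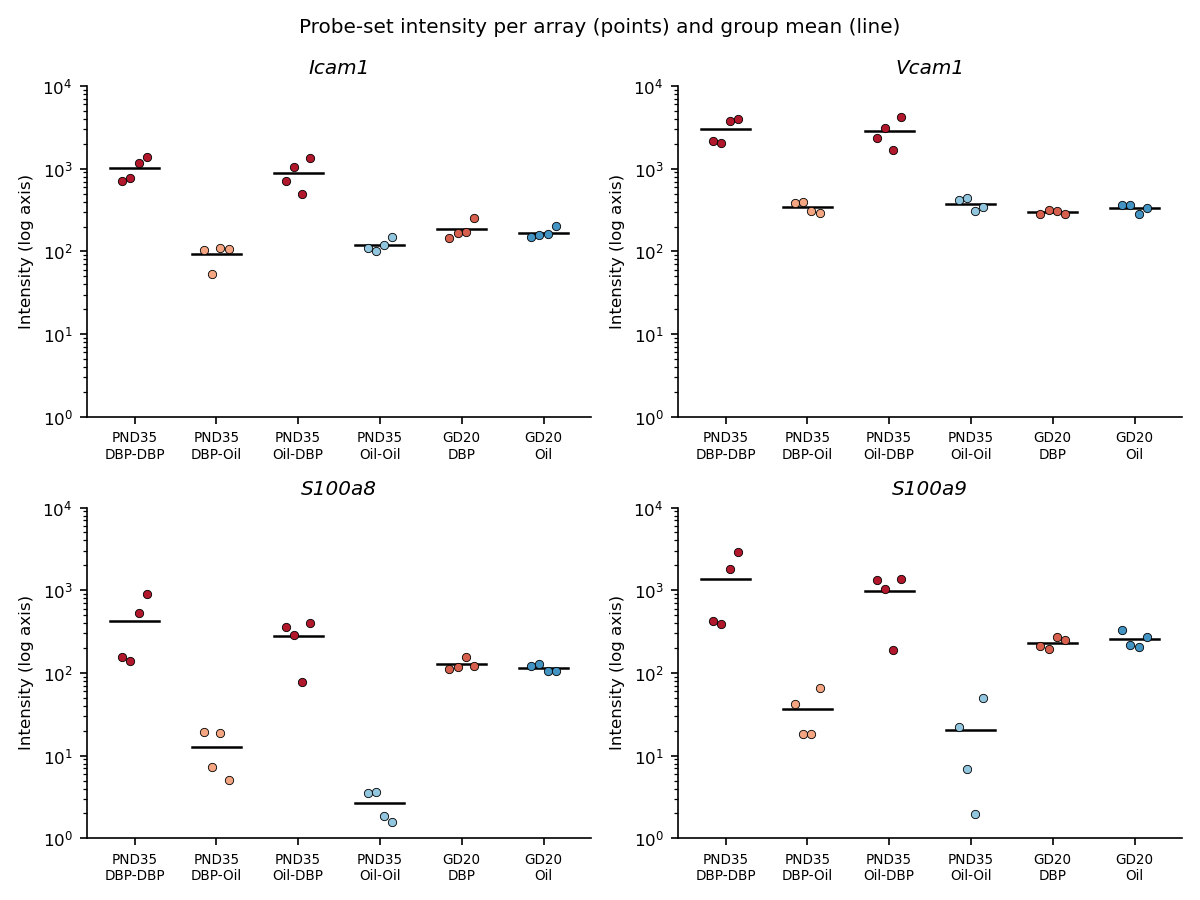
Intensity of Icam1, Vcam1, S100a8 and S100a9 (vertical log axis, the same for each panel) in every array of the 6 groups, with a line at the group mean. DBP-DBP and Oil-DBP testes lie above DBP-Oil and Oil-Oil testes for each gene, and S100a8 and S100a9 spread over a wider range within the first 2 groups than Icam1 and Vcam1 do.

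In Oil-DBP testes, the group on which the members were chosen, the same genes were high. Icam1 had intensities of 706, 1052, 498 and 1329 in Oil-DBP pups 105, 111, 115 and 121, against 109, 99.9, 118 and 150.5 in Oil-Oil pups 104, 110, 114 and 120. Vcam1 had 2345, 3128, 1664 and 4275 in Oil-DBP pups 105, 111, 115 and 121, against 419, 438, 306 and 344 in Oil-Oil pups 104, 110, 114 and 120. Pup 115 was the lowest and pup 121 the highest of the Oil-DBP pups for both genes. The means were 896 ± 368 for Icam1 and 2853 ± 1121 for Vcam1 in Oil-DBP testes, and 119 ± 22.1 for Icam1 and 377 ± 62.4 for Vcam1 in Oil-Oil testes (SD, n = 4 each).

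S100a8 had intensities of 357, 284, 77.4 and 398 in Oil-DBP pups 105, 111, 115 and 121, against 3.56, 3.66, 1.86 and 1.59 in Oil-Oil pups 104, 110, 114 and 120. S100a9 had 1327, 1041, 188 and 1379 in Oil-DBP pups 105, 111, 115 and 121, against 22.1, 6.87, 1.98 and 50.3 in Oil-Oil pups 104, 110, 114 and 120. Pup 115 again was the lowest, and its S100a9 was 7.35 times below that of the highest Oil-DBP pup, while its Vcam1 was 2.57 times below. The log2 fold changes of Oil-DBP against Oil-Oil were 3.72 ± 0.48 for S100a8 and 4.58 ± 0.61 for S100a9 (SE), and 4.20 and 5.23 without pup 115. In Oil-Oil testes 4 of 4 S100a8 values and 2 of 4 S100a9 values were under 16. Over 21 alternatives, the added constant among them, the changes ranged from 2.18 to 6.00 for S100a8 and from 3.35 to 5.83 for S100a9. Sele was at 15.6, 14.8, 23.0 and 23.5 in Oil-DBP pups 105, 111, 115 and 121, and at 8.10, 1.61, 1.69 and 3.16 in Oil-Oil pups 104, 110, 114 and 120. These do not overlap, with a log2 fold change of 0.78 ± 0.25, but all lie at the dim end, and pup 115 was not low for Sele. Selp lay between 11.1 and 51.9 (1369374_at) and between 18.3 and 89.0 (1391946_at) in Oil-DBP testes, and between 6.41 and 51.2 (1369374_at) and between 64.5 and 106 (1391946_at) in Oil-Oil testes, with overlap for both probe sets.

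**Figure D2:**
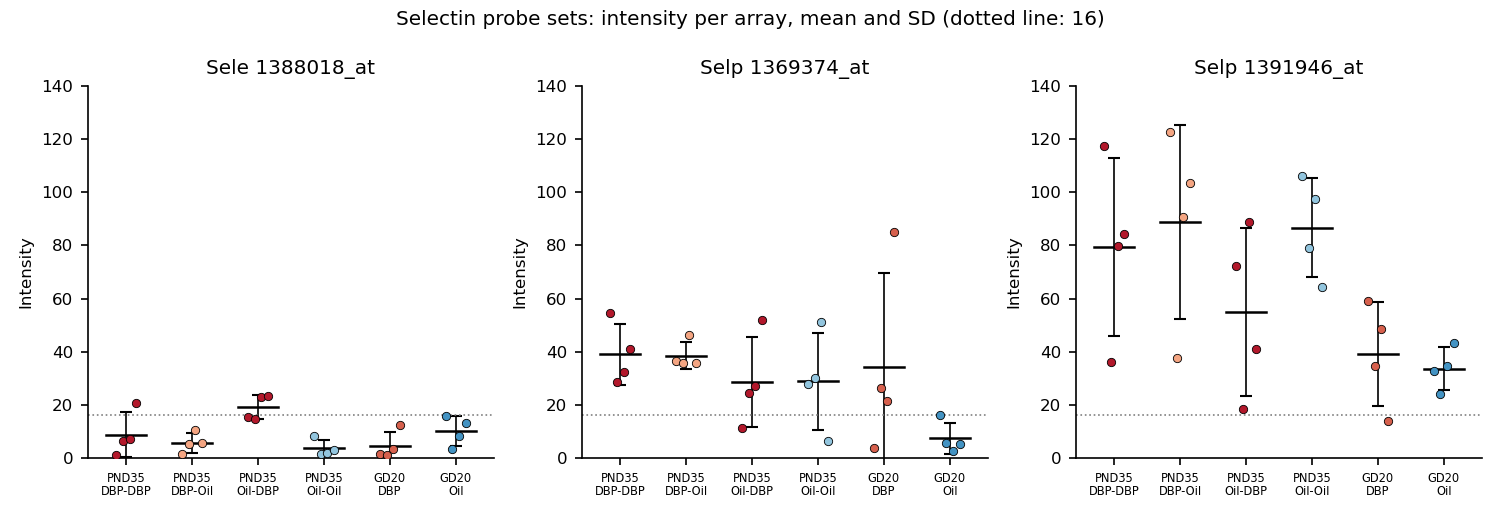
Intensity of the Sele probe set and of both Selp probe sets (vertical linear axis from 0) in every array, with the group mean and SD and a dotted line at 16. Sele lies at or under 23.5 in every array, and the 2 Selp probe sets overlap between the PND35 groups.

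The difference between the postnatal effects, that after fetal DBP minus that after fetal oil, was 0.59 ± 0.36 for Icam1, 0.26 ± 0.33 for Vcam1, -0.13 ± 0.68 for S100a8 and -0.26 ± 0.86 for S100a9 (log2, SE). For Sele it was -0.64 ± 0.35 and for the Selp probe sets 0.02 ± 0.46 (1369374_at) and 0.55 ± 0.51 (1391946_at). These differences include the contrast on which the members were chosen and were not tested. Compared directly at the same postnatal dose, DBP-DBP and Oil-DBP testes overlapped for all 7 probe sets, and none was called, where 0% of all probe sets were called. That comparison shares the Oil-DBP arrays with the choice of the members. The log2 fold changes of DBP-DBP against Oil-DBP were 0.24 ± 0.26 for Icam1, 0.11 ± 0.23 for Vcam1, 0.43 ± 0.48 for S100a8 and 0.33 ± 0.61 for S100a9 (SE, limma adjusted p between 0.836 and 0.935). Without pup 115 these 4 values were -0.0013 for Icam1, -0.11 for Vcam1, -0.05 for S100a8 and -0.32 for S100a9, and other single arrays turned a sign too. Vcam1 had -0.0093 without pup 133, and without pup 135 Vcam1 had -0.046, S100a8 -0.035 and S100a9 -0.18. Sele had -0.53 ± 0.25 (limma, unadjusted p = 0.0457, adjusted p = 0.546), and it was the only one of the 7 with an unadjusted p under 0.05, as 8.99% of all probe sets had, so this count is near that of the whole array. Here the spike-in class and the fetal exposure cannot be told apart.

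**Figure D3:**
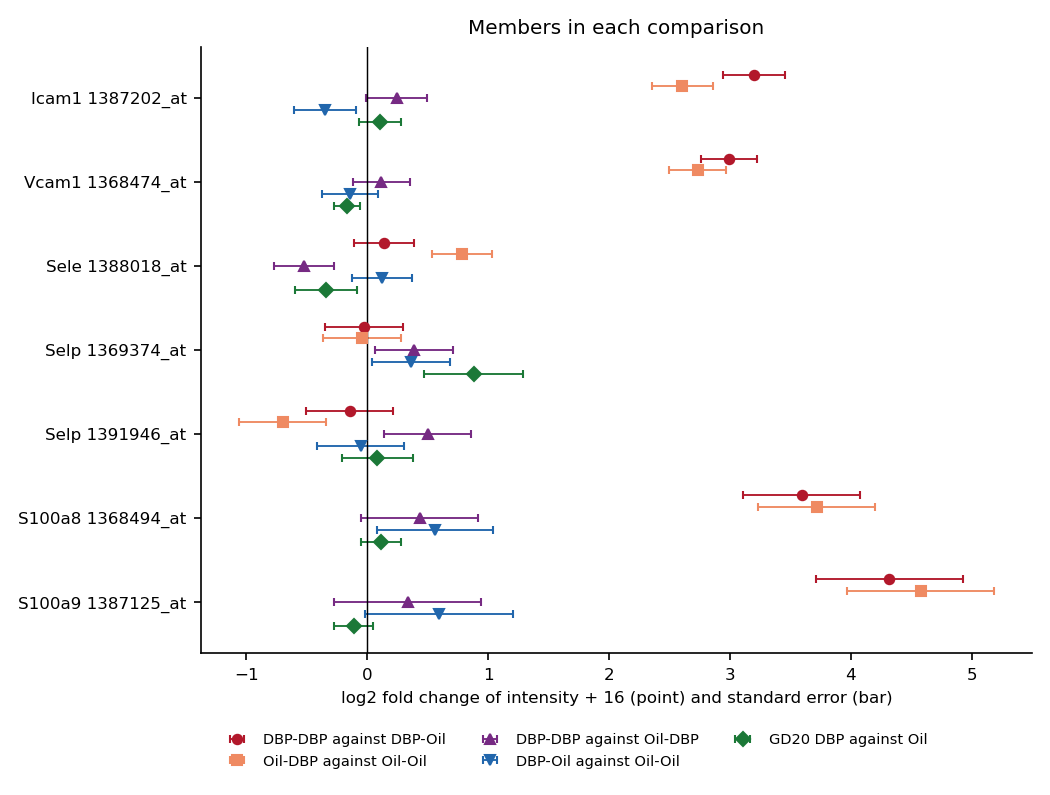
Log2 fold change of intensity + 16 (point) with its standard error (bar) for each member probe set in 5 comparisons. The 2 comparisons of postnatal DBP with postnatal oil lie between 2.61 and 4.58 for Icam1, Vcam1, S100a8 and S100a9, and the 3 comparisons of fetal DBP with fetal oil lie between -0.53 and 0.88 over all probe sets.

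Fetal DBP alone, followed by oil on PND35, left no member probe set called: 0 of 7 in DBP-Oil against Oil-Oil testes by limma, where 0.00322% of all probe sets were called. At an unadjusted p under 0.05 there were 0 of 7, and 7.41% of all probe sets. Icam1 was 93.5 ± 27.3 in DBP-Oil testes and 119 ± 22.1 in Oil-Oil testes, a log2 fold change of -0.35 ± 0.26 (adjusted p = 0.821). Vcam1 was 343 ± 50.1 in DBP-Oil testes and 377 ± 62.4 in Oil-Oil testes (-0.14 ± 0.23, adjusted p = 0.950). S100a8 was above every Oil-Oil array in every DBP-Oil array, at 5.04 to 19.3 in DBP-Oil testes and 1.59 to 3.66 in Oil-Oil testes. All of these values are near or under 16, and its log2 fold change of 0.56 ± 0.48 did not pass (adjusted p = 0.863; with 1 in place of 16 it was 1.72, adjusted p = 0.488). S100a9 overlapped, at 18.4 to 65.4 in DBP-Oil testes and 1.98 to 50.3 in Oil-Oil testes (0.59 ± 0.61, adjusted p = 0.899). Errors here are SD of intensities (n = 4 each) and SE of log2 fold changes, and the Oil-Oil arrays are shared with the choice of the members.

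On GD20, at the end of the fetal dosing, the members were also not called: 0 of 7 by limma, where 0.441% of all probe sets were called, and 0 of 7 at an unadjusted p under 0.05, where 11.8% of all probe sets were. Icam1 had 146, 169, 169.7 and 255 in DBP testes of dams 16, 18, 19 and 21, against 150.5, 158, 161 and 203 in oil testes of dams 2, 3, 4 and 5 (0.11 ± 0.17, adjusted p = 0.859). Vcam1 had 286, 312, 306 and 280.4 in DBP testes of dams 16, 18, 19 and 21, against 363, 360.0, 284 and 339 in oil testes of dams 2, 3, 4 and 5 (-0.17 ± 0.11, adjusted p = 0.570). Both genes overlapped between the groups. S100a8 was 111, 118, 157 and 120.1 in DBP testes of dams 16, 18, 19 and 21, against 120.2, 128, 105 and 106 in oil testes of dams 2, 3, 4 and 5 (0.12 ± 0.17, adjusted p = 0.832). S100a9 was 213, 197, 272 and 248 in DBP testes of dams 16, 18, 19 and 21, against 327, 215, 207 and 271 in oil testes of dams 2, 3, 4 and 5 (-0.11 ± 0.16, adjusted p = 0.828). Both S100 genes overlapped as well. The largest value among the selectins was 0.88 ± 0.41 for Selp 1369374_at (adjusted p = 0.435), with dam 21 at 85.1 and the other DBP arrays between 3.71 and 26.4, against oil arrays between 2.74 and 16.02. Sele was at or under 15.7 in all GD20 arrays, and Selp 1391946_at lay between 13.9 and 59.2 in DBP testes and between 23.9 and 43.4 in oil testes.

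In the order of the 6 groups, at the intensities as scaled by the authors, the GD20 groups lay above the PND35 groups given oil for Icam1, S100a8 and S100a9. They did not for Vcam1. For all 4 genes DBP-DBP and Oil-DBP came first and overlapped within their SD. For Icam1 the GD20 groups followed, at 185 ± 48.3 in DBP testes and 168 ± 23.6 in oil testes, and Oil-Oil and DBP-Oil came last. For Vcam1 the PND35 groups given oil and the GD20 groups overlapped along the whole lower part of the order, with GD20 means of 296 ± 15.5 in DBP testes and 336 ± 36.7 in oil testes. For S100a8 the GD20 means of 127 ± 20.9 in DBP testes and 115 ± 11.4 in oil testes were above the PND35 groups given oil, 12.6 ± 7.47 in DBP-Oil testes and 2.67 ± 1.09 in Oil-Oil testes. S100a9 had the same gap, with 233 ± 34.0 in GD20 DBP testes and 255 ± 55.9 in GD20 oil testes, against 36.2 ± 22.6 in DBP-Oil testes and 20.3 ± 21.7 in Oil-Oil testes. The S100a8 mean of GD20 DBP testes overlapped with that of Oil-DBP testes (279 ± 143) within their SD, while neither fetal mean of S100a9 overlapped with its Oil-DBP mean (984 ± 551), although pup 115, at 188, lay below every GD20 array. All errors are SD with n = 4. The median intensity of all probe sets was 164 to 175 on GD20 arrays and 101 to 114 on PND35 arrays. The part of this difference in the order between ages, where the gap for Icam1 was small, was not tested. Age was not tested either, since fetal and pubertal arrays also differed for the most part in extraction. All GD20 arrays were extracted with Trizol, but only pups 104 and 115 among the PND35 arrays.

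Among the 8 pups given DBP on PND35, the 4 genes had the same pups at the top of each group, and the order below differed in part. In DBP-DBP testes pup 135 was the highest for Icam1, Vcam1, S100a8 and S100a9, pup 133 came next, and pups 124 and 128 were lower, with pup 128 last for all but Icam1. In Oil-DBP testes pup 121 was the highest and pup 115, the Trizol array, the lowest for each of the 4. Between them pup 111 was above pup 105 for Icam1 and Vcam1 and below it for S100a8 and S100a9. The highest DBP-DBP pup was 7.34 times the lowest for S100a9 and 6.33 times for S100a8, against 1.99 times for Vcam1 and 1.93 times for Icam1. In Oil-DBP testes these ratios were 7.35 for S100a9, 5.14 for S100a8, 2.57 for Vcam1 and 2.67 for Icam1. The dim Sele had the same order as Icam1 in DBP-DBP testes. In Oil-DBP testes pup 121 was the highest for Sele too, but pup 115 came next and pup 111 last. For both Selp probe sets the highest DBP-DBP pup was 124.

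**Figure D4:**
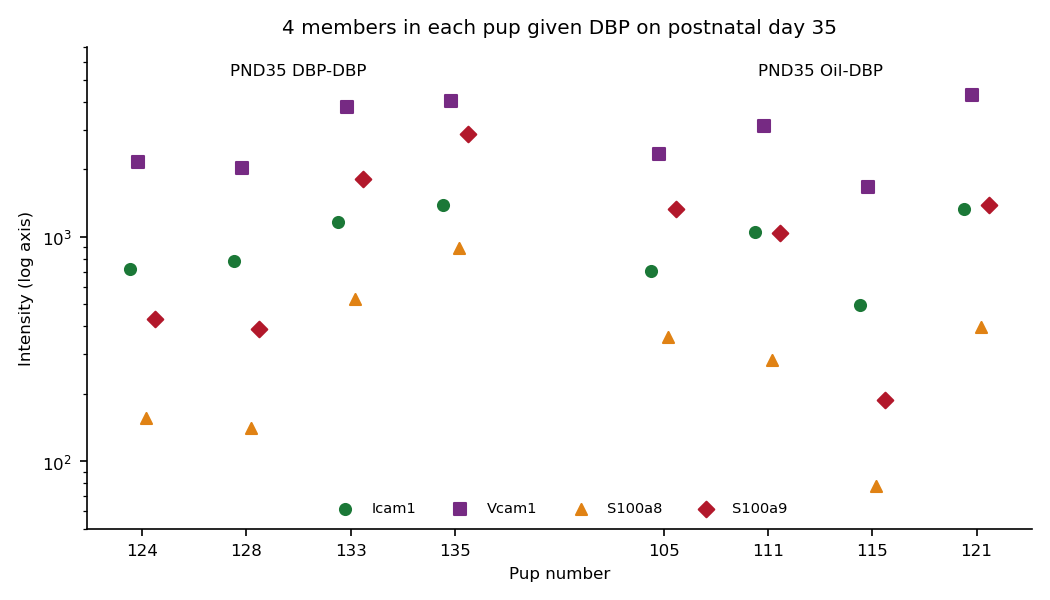
Intensity (vertical log axis) of Icam1, Vcam1, S100a8 and S100a9 in each of the 8 pups given DBP on PND35, named by pup number. Pups 133 and 135 of DBP-DBP lie above pups 124 and 128 for all 4 genes, and pup 115 of Oil-DBP lies below the other 3 pups.

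Over the 16 PND35 arrays, after the group mean was taken off, the deviations of S100a8 and S100a9 had a Pearson r of 0.82, those of Vcam1 and S100a8 0.83, and those of Icam1 and S100a9 0.77. The r was 0.74 between Icam1 and S100a8, 0.70 between Vcam1 and S100a9 and 0.64 between Icam1 and Vcam1. Selp (1391946_at) gave -0.12 with Icam1, -0.27 with Vcam1, -0.03 with S100a8 and -0.08 with S100a9. Sele, which was dim, gave 0.30 with Icam1, 0.30 with Vcam1, 0.40 with S100a8 and 0.30 with S100a9. These values describe arrays that were scaled alike but differed in extraction and spike-in class. Pup 115, a Trizol array, lay furthest from its group mean for each of these genes except the selectins. Its deviations were -1.96 for S100a9, -1.45 for S100a8, -0.73 for Icam1 and -0.68 for Vcam1. The part of extraction and spike-in class in the r values was not tested. The arrays also include the Oil-DBP pups, whose differing S100a9 was known when the members were chosen. The r values and the nearest genes below are therefore a description and no independent support. Of 11292 genes compared in this way, the 5 nearest to S100a9 were Cyria (0.88), Ccl6 (0.86), Mnda (0.83), S100a8 (0.82) and Dip2c (0.81). Those nearest to S100a8 were Nsmf (0.88), Anxa1 (0.86), Tfpi2 (0.86), Il1b (0.86) and Ccl6 (0.86). Ccl6, a chemokine of myeloid cells in rodents, was also among the 5 nearest to Vcam1 (0.85), with Tifa (0.91), Eif6 (0.86), Calca (0.84) and Map2k3 (0.84). For Icam1 they were Hpx (0.89), Rcan1 (0.87), Fas (0.86), Pde4b (0.86) and Timp3 (0.85). The nearest to Selp were Cacna1a (0.84), Sars1 (0.82), Pgghg (0.81), Dtwd2 (0.81) and C1r (0.80), and to the dim Sele, among 11293 genes, Csnk1e (0.81), Ccdc3 (0.80), Tor3a (0.79), Nceh1 (0.77) and Ttc33 (0.76). No gene was shared between the selectins' nearest 5 and those of the other members.

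Other genes of the same steps were taken from lists. All lists used below were chosen with earlier results of these data known. Their counts, medians and p-values are therefore a description and no independent support. In DBP-DBP against DBP-Oil testes 5.13% of all genes were higher and 2.14% lower, and in Oil-DBP against Oil-Oil testes 6.14% were higher and 5.99% lower. The median log2 fold change of all genes was -0.07 in the first of these comparisons and -0.11 in the second. Of 16 measured genes of NF-kB signalling and its cytokines, 13 were higher and 0 lower in DBP-DBP testes against DBP-Oil testes, with a list median of 2.02. Bcl3, a nuclear partner of NF-kB, rose by 3.57 ± 0.32 (SE), the cytokine Il6 by 3.30 ± 0.36, the NF-kB subunit Nfkb2 by 3.21 ± 0.35 and the cytokine Il1a by 2.89 ± 0.16. In Oil-DBP against Oil-Oil testes 12 were higher and 0 lower, with a median of 2.19, led by Il6 (3.31 ± 0.36), Nfkb2 (3.15 ± 0.35), Il1a (2.90 ± 0.16) and Nfkb1 (2.64 ± 0.19). Tnf, which encodes tumor necrosis factor and is named here although it missed the threshold, had 1.10 (adjusted p = 0.0743) in the first comparison and 0.02 (adjusted p = 0.979) in the second, both by limma.

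Of 13 genes of neutrophil recruitment, 4 were higher and 0 lower in each of these comparisons. Cxcl1, a neutrophil-attracting chemokine, had 4323 ± 2081 in DBP-DBP testes and 6.48 ± 5.39 in DBP-Oil testes, and 3543 ± 659 in Oil-DBP testes and 8.99 ± 7.58 in Oil-Oil testes (SD, n = 4 each). Its log2 fold change was 7.45 ± 0.29 after fetal DBP and 7.11 ± 0.29 after fetal oil. Both oil groups were dim, so the size follows the added constant: after fetal DBP it was 9.32 with 1 added and 5.80 with 64, and after fetal oil 8.66 with 1 and 5.57 with 64, all past the threshold. The related Cxcl2 rose by 2.99 ± 0.46 after fetal DBP and 2.15 ± 0.46 after fetal oil, and Il17ra, the receptor of interleukin-17, by 1.12 ± 0.17 after fetal DBP and 1.4 ± 0.17 after fetal oil. Csf2, a growth factor of granulocytes and macrophages, rose by 2.75 ± 0.51 after fetal DBP. Of the 8 receptors and partners through which S100a8 and S100a9 act, 2 were higher and 0 lower in each comparison: Cd14, a co-receptor of Toll-like receptor 4, by 1.14 ± 0.20 after fetal DBP and 0.92 ± 0.20 after fetal oil, and the adaptor Myd88 by 0.95 ± 0.12 after fetal DBP and 0.97 ± 0.12 after fetal oil.

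Of 12 other S100 genes, 2 were higher and 1 lower in DBP-DBP testes against DBP-Oil testes. S100a10, the partner of annexin A2, rose by 2.41 ± 0.19 and S100a4 by 1.02 ± 0.26, and S100b had a log2 fold change of -0.75 ± 0.20 (SE). After adjusting for the spike-in class 1 of them was higher and 0 lower. In Oil-DBP against Oil-Oil testes 3 were higher and 1 lower: S100a10 (2.69 ± 0.19), S100a11 (1.10 ± 0.21) and S100a6 (0.49 ± 0.13), and S100b (-0.92 ± 0.20). The list medians were 0.21 after fetal DBP and 0.13 after fetal oil. Of 15 leukocyte ligands and integrins, 2 were higher and 1 lower after fetal DBP and 2 were higher and 0 lower after fetal oil. St3gal4, a sialyltransferase that helps to build selectin ligands, rose by 2.10 ± 0.16 after fetal DBP and 2.29 ± 0.16 after fetal oil. Itgb1, the beta-1 chain that pairs with alpha-4 to bind Vcam1 and is made by many cell types, rose by 1.17 ± 0.11 after fetal DBP and 1.22 ± 0.11 after fetal oil, while Tpst2, a sulfotransferase that acts on selectin ligands, had -0.35 ± 0.10 after fetal DBP. That call was lost after adjusting for the spike-in class and also without the intensity trend. Of 17 further adhesion molecules of endothelium, 0 were called after fetal DBP, and 4 were higher and 1 lower after fetal oil, among them Alcam (0.61 ± 0.19), Cd47 (0.53 ± 0.12) and Cd99l2 (-0.56 ± 0.15). Without the intensity trend 2 were higher and 0 lower after fetal oil. The medians of that list were 0.13 after fetal DBP and 0.19 after fetal oil.

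**Figure D5:**
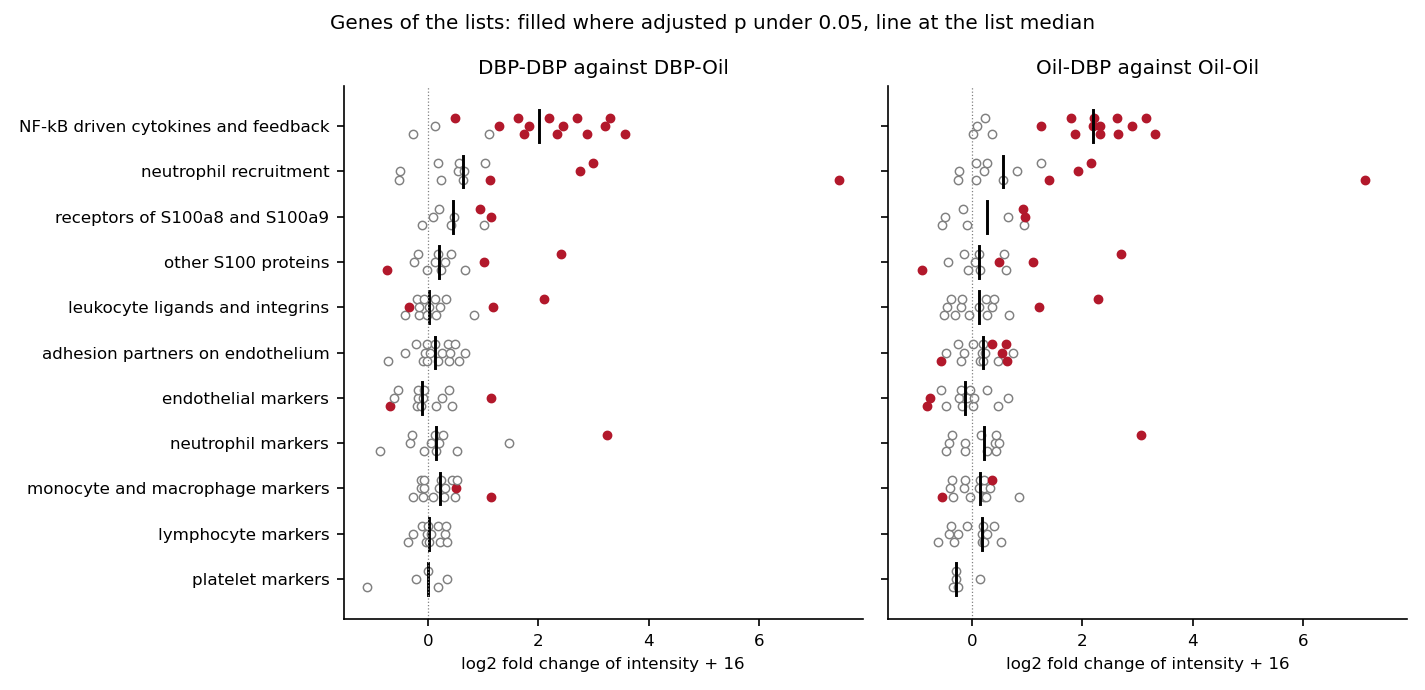
Log2 fold change of intensity + 16 (horizontal axis) of each gene in 11 lists, for DBP-DBP against DBP-Oil on the left and Oil-DBP against Oil-Oil on the right, with filled points where the adjusted p was under 0.05 and a line at the list median. The NF-kB list has its median at 2.02 on the left and 2.19 on the right, and the neutrophil marker list has 1 filled point, Il1r2, in each panel.

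Markers of the cells that carry S100a8 and S100a9 are set here beside 5.13% of all genes higher after fetal DBP and 6.14% after fetal oil. Of 12 measured neutrophil markers 1 was higher and 0 lower in DBP-DBP against DBP-Oil and in Oil-DBP against Oil-Oil testes. It was Il1r2, a decoy receptor of interleukin-1, with 239 ± 110 in DBP-DBP testes and 9.87 ± 9.90 in DBP-Oil testes, and 317 ± 126 in Oil-DBP testes and 22.5 ± 17.3 in Oil-Oil testes (SD, n = 4 each). The list median was 0.14 after fetal DBP and 0.22 after fetal oil, against -0.07 and -0.11 for all genes. The granule protein gene Camp was at 3.18 to 6.46 in DBP-DBP testes and 5.18 to 15.3 in DBP-Oil testes, and the defensin genes Np4 and RatNP-3b were at or under 63.6 in all PND35 arrays. Camp, Np4 and RatNP-3b are named here although they were not called, and these 3 do not stand for the list. With dim probe sets filtered out, the median of the 6 neutrophil markers left was 0.34 after fetal DBP and 0.22 after fetal oil. The sum over the 12 markers was 811 to 1343 in DBP-DBP testes and 622 to 801 in DBP-Oil testes, and 998 to 1488 in Oil-DBP testes and 796 to 1012 in Oil-Oil testes. It includes Il1r2, whose own rise makes up a large part of these differences, so the sum says little about the other markers. Pup 115 had the lowest sum among the Oil-DBP pups and pup 121 the highest, as for S100a9. In DBP-DBP testes pup 133 had the highest sum, and pup 135, the highest for S100a8 and S100a9, had 1135. This match with S100a9 was not particular to neutrophil markers. Among the Oil-DBP pups the monocyte and macrophage sum also ran from 7757 in pup 115 to 9383 in pup 121. The sum of the NF-kB list ran from 10369 in pup 115 to 16508 in pup 121, and in DBP-DBP testes it had the pup order of S100a9. The part of these cells in the S100a8 and S100a9 values was not tested.

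Of 16 monocyte and macrophage markers, 2 were higher and 0 lower in DBP-DBP against DBP-Oil testes: Lyz2, a lysozyme of myeloid cells (1.15 ± 0.27), and Mrc1, the macrophage mannose receptor (0.50 ± 0.10). After adjusting for the spike-in class, or without the intensity trend, 1 was higher. In Oil-DBP against Oil-Oil testes 1 was higher, Mrc1 (0.35 ± 0.10), and 1 lower, and without the trend 0 were called. Their sum was 7365 to 10429 in DBP-DBP testes and 5739 to 7454 in DBP-Oil testes, and 7757 to 9383 in Oil-DBP testes and 6828 to 8486 in Oil-Oil testes. Of 13 lymphocyte markers and of 5 platelet markers 0 were called in either comparison, and of 6 erythroid markers 0 were called after fetal DBP and 1 was lower after fetal oil. The erythroid sum was 19825, 10751, 15158 and 8204 in DBP-DBP pups 124, 128, 133 and 135, and 7244 to 10815 in DBP-Oil testes. The part of blood in the S100a8 and S100a9 values was not tested. Of 14 endothelial markers 1 was higher and 1 lower after fetal DBP, Kdr (1.14 ± 0.22) and Cldn5 (-0.68 ± 0.16), and 2 were lower after fetal oil, Tek (-0.82 ± 0.18) and Cldn5 (-0.76 ± 0.16). After adjusting for the spike-in class 0 endothelial markers were called after fetal DBP. Their sum was 1715 to 1896 in DBP-DBP testes and 1918 to 1950 in DBP-Oil testes, and 1707 to 1976 in Oil-DBP testes and 1864 to 2013 in Oil-Oil testes. The part of endothelial cells in the Icam1 and Vcam1 values was not tested. Of 15 testis cell markers 1 was higher and 2 lower after fetal DBP, and 3 were higher and 6 lower after fetal oil. In DBP-Oil against Oil-Oil and in DBP-DBP against Oil-DBP testes 0 genes of the 13 lists were called, and on GD20, where 0.563% of all genes were called, the 1 list gene called was Sirpa, a receptor of Cd47 on myeloid cells, at -0.44 ± 0.08 (SE, limma adjusted p = 0.0492).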

How the data were processed

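Testis RNA was hybridised to Affymetrix Rat230_2 arrays, 1 per sample. The deposited values are linear intensity per probe set, which the authors scaled to 1 common trimmed mean. The submitters' processing notes name GCOS 1.0, with a summarization method not given in the sources used here. Of 31099 probe sets, 57 manufacturer's controls were left out. To each intensity 16 was added before log2; GD20 arrays were kept as deposited and PND35 arrays were centred on their median. The 8 GD20 arrays and the 16 PND35 arrays were fitted separately with limma 3.58.1 in R 4.3.3, using eBayes with its trend on intensity. Tests were two-sided, and p-values were adjusted by Benjamini and Hochberg's method over 31042 probe sets with a threshold of 0.05. The procedure was tested on simulated data. In the list counts 1 probe set stands for each gene, that of highest mean intensity at that age. The members and the 13 lists were chosen with earlier results of these data known. Named list genes are up to 4 per direction, called and without overlap between the groups, with the largest changes; likeness names the 5 highest correlations. Alternatives changed the added constant, the scaling, the filter, the trend, covariates, blocks and arrays. The number of arrays limits the precision, and the array has no detection calls here.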

Additional observations from a re-analysis of the deposited data

Results flagged for a closer look

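Over the 42 groups of 4 arrays formed by 7 member probe sets and 6 groups, 2 held an array far from the other 3 by Dixon's test at the 95% level, and chance flags about 1 in 20 groups. Icam1 in DBP-Oil testes had pup 127 at 52.9, with the other 3 pups between 103 and 111, and the gap was 0.85 of the group's range. Selp 1369374_at in DBP-Oil testes had pup 132 at 46.2, with the other 3 pups between 35.6 and 36.6, and the gap was 0.903 of the range. The S100a9 value of pup 115 in Oil-DBP testes did not pass this limit.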

How the results depend on the processing

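The count of member probe sets called stayed at 4 of 7 in DBP-DBP against DBP-Oil testes under all 22 alternatives, and at 0 of 7 under all 22 alternatives in DBP-Oil against Oil-Oil testes, all 21 in DBP-DBP against Oil-DBP testes and all 19 on GD20. In DBP-DBP against DBP-Oil the log2 fold changes ranged over those alternatives from 2.73 to 3.404 for Icam1, 2.83 to 3.20 for Vcam1, 2.38 to 4.73 for S100a8 and 3.404 to 4.88 for S100a9, with a highest adjusted p of 0.0088 (limma). The filter on dim probe sets, a group mean of 64 or more, left out Sele and Selp 1369374_at at PND35 and all 3 selectin probe sets on GD20, and could not be run for them. The block of adjacent pup numbers had a consensus correlation of 0.054. The comparison within a spike-in class was added after the data were seen.

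The count over the whole array moved more than that of the members. On GD20 it was 137, 10 without the intensity trend, 42 without the pooled oil array, and 29 (without oil dam 5) to 175 with 1 array left out. In Oil-DBP against Oil-Oil testes it was 2770, 1508 with the RNA integrity number as a covariate, 1541 from the 8 arrays alone, and 1597 (without pup 111) to 4607 (without pup 105) with 1 array left out. In DBP-DBP against DBP-Oil testes it was 1623, and 935 after adjusting for the spike-in class. In DBP-Oil against Oil-Oil testes it was 1; it was 14 with the RNA integrity number, 0 without the trend, with the spike-in class or the extraction method as covariates, without the Trizol arrays, from the 8 arrays alone and within the spike-in class, and 0 to 14 with 1 array left out. In DBP-DBP against Oil-DBP testes it was 0; it was 7 with quantile normalization, 3 without centring, 1 with centring on the 75th percentile, 1 without the trend, 1 without the Trizol arrays, 63 with the RNA integrity number, and 0 to 35 (without pup 105) with 1 array left out.

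Values that turned their sign were all among those that did not pass the test, and the cause was not tested. On GD20, after adjusting for the spike-in class and within the class alike, Icam1 had -0.083 and S100a8 -0.0021, and S100a9 had 0.0074 without the pooled array. In DBP-DBP against DBP-Oil testes Selp 1369374_at had 0.030 with quantile normalization. In DBP-Oil against Oil-Oil testes the RNA integrity number gave 0.00013 for Vcam1, -0.13 for Sele and 0.26 for Selp 1391946_at. There the fit adjusted for spike-in class and the fit within it gave 0.061 for Vcam1 and -0.0088 for Sele, and Selp 1391946_at had 0.098 with the extraction method and 0.021 without the Trizol arrays. In DBP-DBP against Oil-DBP testes Icam1 had -0.16 with the spike-in class as covariate. There the class effect was estimated from the DBP-Oil arrays only, so that fit cannot separate class from fetal exposure in the groups compared. Without the Trizol arrays Icam1 had -0.0013, Vcam1 -0.11, S100a8 -0.051 and S100a9 -0.32 in that comparison.

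With 1 array left out, the GD20 values ranged from -0.048 to 0.20 for Icam1, -0.094 to 0.35 for Selp 1391946_at and -0.20 to 0.0074 for S100a9. In DBP-DBP against DBP-Oil testes they ranged from -0.064 to 0.30 for Sele, -0.16 to 0.058 for Selp 1369374_at and -0.44 to 0.11 for Selp 1391946_at, and in DBP-Oil against Oil-Oil testes from -0.24 to 0.23 for Selp 1391946_at. In DBP-DBP against Oil-DBP testes they ranged from -0.0013 to 0.46 for Icam1, -0.11 to 0.34 for Vcam1, -0.051 to 0.79 for S100a8 and -0.32 to 0.75 for S100a9, with the lowest value without pup 115 for all 4. Low signal limits Sele, Selp and the oil-group values of S100a8, S100a9, Cxcl1, Cxcl2, Csf2, Il6 and Il1r2, whose fold changes follow the added constant. Without the intensity trend the lists also lost calls: after fetal DBP 0 of 12 other S100 genes were lower and testis markers were 0 higher and 1 lower, and after fetal oil 3 of 13 genes of neutrophil recruitment were higher, 0 erythroid markers were called, and testis markers were 1 higher and 3 lower.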
